A study of Mus musculus with 2 samples.

Results

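Cluster 4 of the deposited clustering was a group of double-positive (DP) thymocytes, cells that carry both CD4 and CD8 while they rearrange the alpha chain of the T cell receptor (TCR). Its members were the cells with the value 4 in the deposited cluster column, and they numbered 1215 of 13683 cells. The library labelled WT gave 594 of them, which was 9.71% of its 6115 cells (95% exact Clopper-Pearson interval 8.98 to 10.5). The library labelled KO gave 621, which was 8.21% of its 7568 cells (7.60 to 8.85). The KO share was 0.845 of the WT share. Among cells of clusters 0 to 4 alone, the shares were 16.3% and 13.4%.

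The WT library came from Cdc42f/f mice and the KO library from Cdc42f/f CD4Cre mice. Both groups were 6 weeks old, and the whole thymuses of 5 mice were pooled into 1 library for each. Both groups carry the loxP-flanked Cdc42 alleles, and only the KO mice carry Cre driven by the CD4 promoter, which removes exon 2 from the DP stage on. Cdc42 is a small GTPase that directs the actin cytoskeleton. With 1 pooled library per group, no difference between WT and KO has a replicate check. All intervals below are 95% intervals that cover counting error only, and comparisons of a cluster with other clusters are descriptions, because the clusters were made from the same genes.

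Thymocytes pass from a CD4- CD8- double-negative (DN) stage, where the beta chain is rearranged, through a burst of division as early DP cells. They then stop dividing, switch on Rag1 and Rag2 again and join TCR alpha segments, starting with the variable genes nearest to the constant gene Trac and moving outward in later rounds. Ribosomal protein genes are known for short runs of C and T at the start of their transcripts, which link their translation to growth signals. Cluster 4 was set beside clusters 0 to 3, the other large Rag1 clusters, and beside clusters 10 to 13, which held the dividing cells.

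Levels are given as CPM, the counts of a gene over all cells of a cluster and library, scaled to the same total in each. Counts are unique molecular identifiers (UMIs, 1 per captured transcript). Cluster 4 summed to 2232190 UMIs in WT and 2577145 in KO, with medians of 3596 and 3905 UMIs per cell. Clusters 0 to 3 had medians of 2704 and 3009 UMIs per cell, and clusters 10 to 13 of 11964 and 14929. The median mitochondrial share in cluster 4 was 5.68% in WT and 5.77% in KO, and 13 of its cells were above 10%. The 2 libraries shared 17 cell barcodes, and 5 cells of cluster 4 carried such a barcode. At the finer resolution 1.8, 1160 of the 1215 cells stayed in 1 cluster of 1171 cells. At resolution 2, 1152 stayed in 1 cluster of 1158 cells.

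Cdc42 itself was at 365 CPM (340 to 391) in the WT and 331 CPM (309 to 354) in the KO cells of cluster 4. The log2 ratio of KO over WT was -0.14 (-0.28 to -0.00129). Counts taken at the 3′ end cannot separate a transcript that lacks exon 2 from a full one, so this level is no check of the labels.

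All 3 markers given for the cluster were counted in it, Ptcra in few cells. Rag1, a subunit of the recombinase that cuts TCR gene segments, was at 2201 CPM in WT and 2126 CPM in KO, and a UMI of it was found in 98.1% and 97.6% of the cells. In the cells of clusters 15 and 16, which hold other cell types, that share was 8.60% and 24.3%, in clusters with medians of 695 to 4284 UMIs per cell. Dntt, which adds untemplated bases at TCR joints, was at 1667 and 1532 CPM. Ptcra, the invariant chain paired with the beta chain before alpha is made, was at 61.4 CPM (51.5 to 72.6) in WT and 72.2 CPM (62.2 to 83.3) in KO. A UMI of it was found in 18.7% and 21.9% of the cells, against 11.8% and 12.7% in clusters 0 to 3, and with cells thinned to 1000 UMIs in 7.26% and 7.26% against 4.69% and 4.84%. Rag1 was lower than in each of clusters 0 to 3 in both libraries, where it ranged from 2481 to 3310 CPM, and was above each of clusters 10 to 13, where it ranged from 139 to 1438 CPM. The Ptcra level of cluster 4 was within the range of clusters 10 to 13, 36.7 to 99.7 CPM.

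Both coreceptors were counted. Cd8a was at 1933 CPM in WT and 1999 CPM in KO. Cd4 was at 489 and 509 CPM. UMIs of Cd4 and of a Cd8 gene were found together in 475 of 594 WT cells (79.97%) and in 518 of 621 KO cells (83.4%), and the other cells had a Cd8 UMI alone. Dividing cells were rare. Of the cells of cluster 4, 1 in each library held 3 or more UMIs of Top2a, Mki67, Cdk1 and Ccnb1 together.

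Markers of other cells were checked as whole lists. The 11 B cell genes summed to 603 CPM in WT and 539 CPM in KO, against 375 and 362 CPM in clusters 0 to 3. Among them Cd79a and Pax5 had 0 UMIs in both libraries, which at a floor of 3 counts allows up to 1.34 CPM in WT and 1.16 CPM in KO. Ighm, the constant region of the IgM heavy chain, made up 1199 of the 1346 UMIs in WT and 1211 of 1388 in KO, at 537 and 469.9 CPM against 311 and 299.7 CPM in clusters 0 to 3. Among 11 macrophage genes, Adgre1 had 0 UMIs and Lyz2 had 1 and 3, while Apoe had 109 and 139. Among 11 dendritic cell genes, Itgax, Siglech and Batf3 had 0 UMIs, and Ccr9, which DP cells also express, had 2472 and 3386. Among 7 thymic epithelial cell genes, Krt5 had 0 UMIs and the summed level was 52.9 and 60.9 CPM. Haemoglobin and the other of 5 red blood cell genes summed to 29 UMIs in WT and 1 in KO. The 9 gamma-delta T cell genes summed to 253 and 237 CPM, against 228 and 215 CPM in clusters 0 to 3. Sox13 and Blk had 0 UMIs, and Trdc, the constant gene of the TCR delta chain, was at 52.9 and 50.1 CPM against 25.5 and 27.4 CPM. The part of these cells in the results was not tested.

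The 79 ribosomal protein genes made up 17.8% of the summed UMIs in WT and 17.3% in KO. In clusters 0, 1 and 2 they made up 12.5%, 13.2% and 12.8% in WT and 11.9%, 12.6% and 12.2% in KO. Cluster 3 lay between, at 16.2% and 15.1%. The dividing clusters split into a pair near 25% (25.4% and 24.9% in WT and 25.1% and 24.98% in KO, for clusters 11 and 12) and a pair at 13.2% to 14.5% (clusters 10 and 13). Cluster 4 was therefore not the cluster richest in ribosomal protein UMIs once the dividing clusters were counted.

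**Figure D1:**
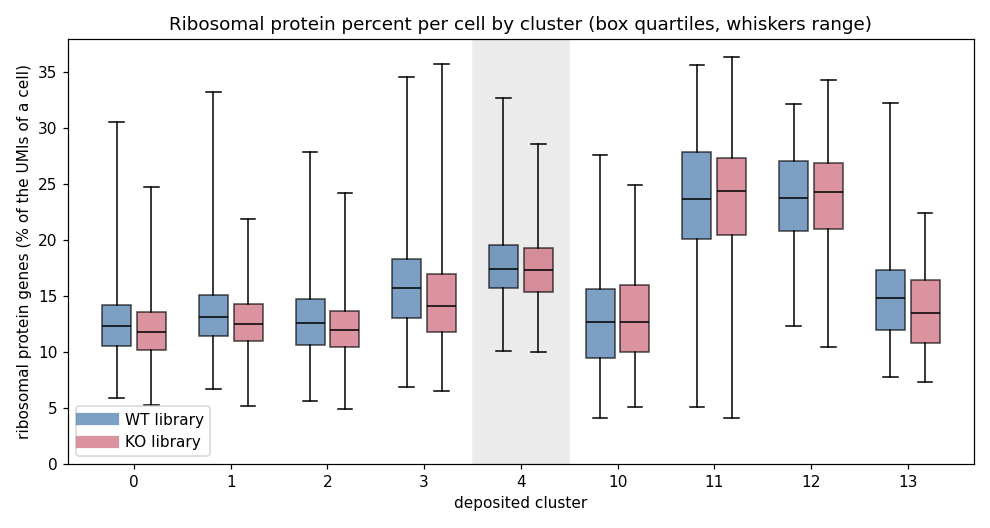
Share of each cell's UMIs that came from ribosomal protein genes (y axis, percent) by deposited cluster (x axis) and library (colour). Boxes give the quartiles, the line the median and the whiskers the lowest and highest cell. Cluster 4, shaded, has medians of 17.4% and 17.4%, above those of clusters 0 to 3 and below those of clusters 11 and 12.

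Cells of cluster 4 were spread over a wide range of this share. In WT the lowest cell was at 10.1%, the quartiles were 15.7% and 19.6%, and the highest cell was at 32.7%. In KO the lowest was 9.96%, the quartiles 15.3% and 19.3%, and the highest 28.6%. Of the WT cells, 575 of 594 (96.8%) lay above the median cell of clusters 0 to 3, and of the KO cells 594 of 621 (95.7%). Set against the median cell of cluster 3, the shares were 74.4% and 85.5%. Above the median cell of clusters 11 and 12 lay 19 WT and 11 KO cells.

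A gene was called when its log2 ratio was 0.5 or more in size, in the same direction in both libraries, with at least 100 UMIs in each. Of the 79 ribosomal protein genes, 14 were called higher in cluster 4 than in clusters 0 to 3 and 0 lower. Of all 8018 genes tested, 130 (1.62%) were called higher and 354 (4.42%) lower. Their median log2 ratio was 0.40 in WT and 0.42 in KO, beside -0.12 and -0.11 over all genes with at least 20 UMIs. In WT 78 of the 79 were above 0 and in KO all 79. The exception was Rplp1, a protein of the ribosomal stalk, at -0.05 in WT and 0.05 in KO.

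Rpl13a, a protein of the large subunit, had the largest ratio of the list. It was at 601 CPM in WT and 499 CPM in KO in cluster 4, against 365 and 307 CPM in clusters 0 to 3, a log2 ratio of 0.72 (0.62 to 0.81) in WT and 0.70 (0.61 to 0.79) in KO. Rpl28 was at 4154 and 3823 CPM against 2724 and 2383 CPM. In both genes cluster 4 was above each of clusters 0, 1, 2 and 3 in both libraries, and cluster 3 was second among the 5.

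The translation machinery around the ribosome showed a smaller shift. Of 38 translation factor genes, 5 were called higher and 1 lower, with medians of 0.12 in WT and 0.18 in KO. Those called higher were 4 subunits of the initiation factor eIF3 and Naca, which binds new chains at the ribosome. Naca was at 1829 CPM in WT and 1606 CPM in KO, against 1116 and 962 CPM in clusters 0 to 3. Eif3f was at 861 and 766 CPM against 549 and 502 CPM. Eif3e and Eif3h had log2 ratios of 0.69 and 0.63 in WT and of 0.74 and 0.52 in KO. Eif1a, which helps to scan for the start codon, was lower, at 25.5 and 30.3 CPM against 37.2 and 43.8 CPM.

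Of 46 ribosome biogenesis genes, 44 in WT and 45 in KO had at least 20 UMIs. Their medians were -0.30 and -0.22, beside -0.12 and -0.11 over all genes. Of the 38 with 100 UMIs in each library, 0 were called higher and 5 lower. These were Nop56, Nolc1 and Ddx21, which work on ribosomal RNA in the nucleolus, Bop1, which matures the large subunit, and Gnl3, a nucleolar GTPase. Nolc1 was at 22.8 CPM in WT and 26.8 CPM in KO, against 38.3 and 45.5 CPM in clusters 0 to 3 and 126 and 154 CPM in clusters 10 to 13. Set against cluster 3 alone, 0 of 28 biogenesis genes were called. The medians there were -0.20 and -0.09, beside -0.05 and -0.06 over all genes.

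Hosts of small nucleolar RNAs (snoRNAs) were chosen as a list after their values were seen. Host genes carry snoRNAs in their introns, and in Gas5, Zfas1 and Snhg1 the spliced remainder codes for no known protein. Of those listed, only Zfas1 was among the 10 genes with the largest ratios over clusters 0 to 3. The list may not hold every host. Of 15 such genes 14 had enough UMIs for a call, and 4 were called higher (Gas5, Zfas1, Snhg1 and Snhg6). Gas5 was at 678 CPM in WT and 639 CPM in KO, and in clusters 0 to 3 it ranged from 354 to 512 CPM. Zfas1 was at 309.6 and 284 CPM against 140.1 and 115 CPM. Snhg1 was at 279.5 and 236 CPM against 137 and 128 CPM. In all 3 genes both libraries of cluster 4 were above both libraries of each of clusters 0 to 3.

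The start sites of these genes were read from the RefSeq promoters of build GRCm38.p6, which hold 250 bases before and 50 after each start. A run was counted where at least 6 letters in a row were C or T and the run reached within 3 bases of the start, on the strand of the transcript. Of 79 ribosomal protein genes 58 matched a promoter, and 25 of these (43.1%) held such a run, as did 8 of 29 translation factors (27.6%) and 5 of 13 snoRNA hosts (38.5%). Among all 27025 promoters the share was 18.05%, and among ribosome biogenesis genes it was 10.0%. A run of A and G, which is the same motif on the opposite strand, was found in 10.3% of the ribosomal protein promoters and 20.1% of all. A promoter can hold both runs. Windows were kept for only some of the genes called. Among genes of these lists called higher in cluster 4, 16 windows were kept, 6 with the run and 10 without. Among the biogenesis and translation genes called lower, 4 were kept, 0 with the run. For Bop1 and Eif1a, both called lower, no window was counted, so the window counts do not cover them. Of all genes called lower, 269 matched a promoter, and 44 of these (16.4%) held the run. Among all genes tested the share was 19.0% (1188 of 6253). Among genes called higher, with ribosomal protein genes left out, it was 32% (24 of 75). The windows below show both kinds among the genes called. Each runs from 20 bases before the start to 10 from the start on, with the run in capitals.
Rpl28, chr7:4792945-4792974, plus strand, higher in cluster 4, with the run: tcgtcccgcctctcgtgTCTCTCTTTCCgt
Eif3f, chr7:108934395-108934424, plus strand, higher, with the run: gctcttctgttctaggCTCTCTCTCTTTCT
Gas5, chr1:161035146-161035175, plus strand, higher, with the run: gactcagccgccatctcagCCTTTCggagc
Rpl37, chr15:5116593-5116622, plus strand, higher, without it: gaagtagtttcctgggcggaagcttatcca
Rpl24, chr16:55966255-55966284, plus strand, higher, without it: taggaagaaagctgttgctaggaaacagac
Eif3k, chr7:28981879-28981908, minus strand, higher, without it: aaaaaaaaacaaccggcgctggtgctgaaa
Zfas1, chr2:167062914-167062943, plus strand, higher, without it: gcgggttgactgcgccccgggcggccgcag
Snhg1, chr19:8723467-8723496, plus strand, higher, without it: cacacgttgttcttgtcggcctcatttttc
Gnl3, chr14:31019122-31019151, minus strand, lower, without it: gctgccgtaaatccaacctgtggccgccag
Nolc1, chr19:46075827-46075856, plus strand, lower, without it: gtgggaccggaagcaacttctagatttagt
Among translation factors, the 8 genes with the run had a median log2 ratio of 0.35 in WT and 0.38 in KO over clusters 0 to 3, and the 21 without it 0.10 and 0.15. Whether the run has a part in these ratios was not tested. The match is a description of letters near annotated starts, and 8 of the 58 ribosomal protein genes had more than 1 listed start. For a gene with more than 1, the start with the longest run was counted and shown. Gas5 had 2 listed starts.

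**Figure D2:**
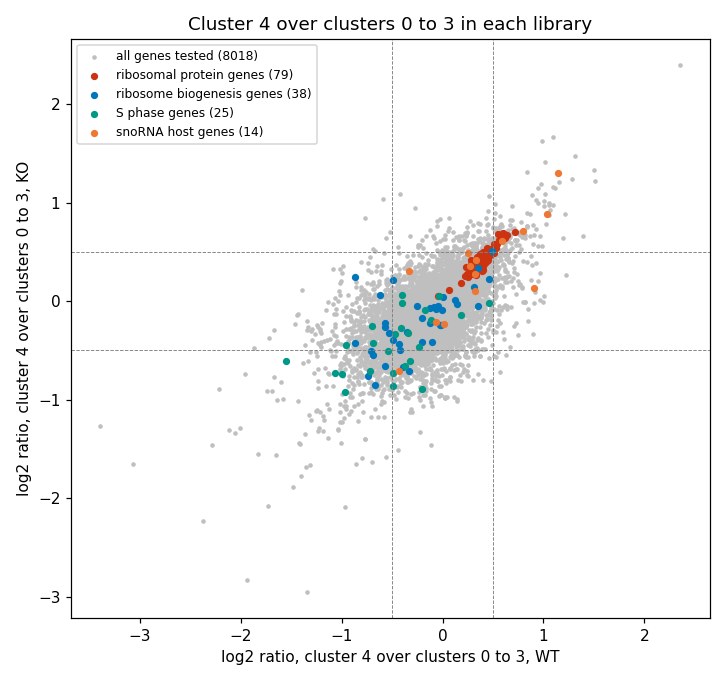
Log2 ratio of cluster 4 over clusters 0 to 3 in the WT library (x axis) and in the KO library (y axis), 1 point per gene tested, with dashed lines at 0.5 and -0.5. Ribosomal protein genes form a compact group around 0.40 and 0.42, snoRNA hosts reach above 1, and most ribosome biogenesis and S phase genes lie below 0 in both libraries.

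Beyond the translation genes, the 10 genes with the largest ratios over clusters 0 to 3 were H1f10, Cenpf, Gzma, Lgals1, Crlf2, 2410006H16Rik, Zfas1, AB124611, 1110038B12Rik and Nrp1. H1f10, a linker histone encoded on chromosome 6 at positions 87980421 to 87981637, was at 36.3 CPM in WT and 34.1 CPM in KO, against 7.06 and 6.49 CPM, a log2 ratio of 2.36 (1.86 to 2.86) and 2.39 (1.95 to 2.85). Its counts came from few cells. A UMI was found in 30 of 594 WT cells and in 30 of 621 KO cells, and the highest cell of each library held 9 of the 81 and 88 UMIs. Those 30 cells had median ribosomal protein shares of 17.9% and 18.4%, beside 17.4% and 17.3% in the cells without a UMI. They had 0 UMIs of Top2a. The 564 WT and 591 KO cells without H1f10 had only 23 and 22, so 0 in 30 cells does not set them apart.

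Cenpf, a kinetochore protein made late in the cell cycle, was at 21.95 and 16.7 CPM against 7.76 and 6.65 CPM in clusters 0 to 3 and 644 and 600.3 CPM in clusters 10 to 13. It was found in 38 WT and 33 KO cells, of which 1 and 4 also had H1f10. Lgals1, a galectin that binds surface sugars, was at 738 and 807 CPM against 304 and 343 CPM. Gzma, a granzyme, was at 92.7 and 123 CPM against 37.3 and 44.4 CPM. Crlf2, the receptor chain for the cytokine TSLP, was at 31.4 and 28.3 CPM against 11 and 12.2 CPM. Nrp1, a receptor for semaphorins and VEGF, was at 37.2 and 47.0 CPM against 17.5 and 14.8 CPM.

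Among the 10 genes with the largest falls were Smoc1, Tdrp, Bmf, Scn4b, Scn2b, Dusp6, Igf1r, Ckb and Cd69. Bmf, a BH3-only protein that triggers apoptosis, was at 9.41 CPM in WT and 12.03 CPM in KO, against 32.0 and 51.5 CPM, a log2 ratio of -1.73 (-2.48 to -1.12) and -2.08 (-2.67 to -1.58). Of 32 apoptosis genes, 25 had enough UMIs, with 0 called higher and 3 lower. Another of these was Bcl2l11, which encodes the BH3-only protein BIM and was at 29.1 and 23.7 CPM against 60.2 and 58.4 CPM. The median over the list was -0.12 in WT and -0.08 in KO, close to that of all genes. With DESeq2 size factors the KO median was above 0, so the list has no direction.

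Smoc1, a secreted calcium-binding protein, was at 5.82 and 6.21 CPM against 31.4 and 30.03 CPM. Igf1r, a growth factor receptor, was at 5.82 and 11.6 CPM against 29.4 and 32.6 CPM. Cd69 and Dusp6, which TCR signals induce, were at 8.51 and 10.9 CPM and at 6.27 and 4.27 CPM. In clusters 0 to 3 Cd69 was at 23.2 and 30.1 CPM. Of the 20 TCR signal response genes 13 had enough UMIs, 2 were called higher (Cd5 and Ikzf2) and 2 lower (Cd69 and Cd53). Cd5, a brake on TCR signalling, was at 93.6 and 91.6 CPM against 56.6 and 59.9 CPM, so genes of this list moved in both directions.

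**Figure D3:**
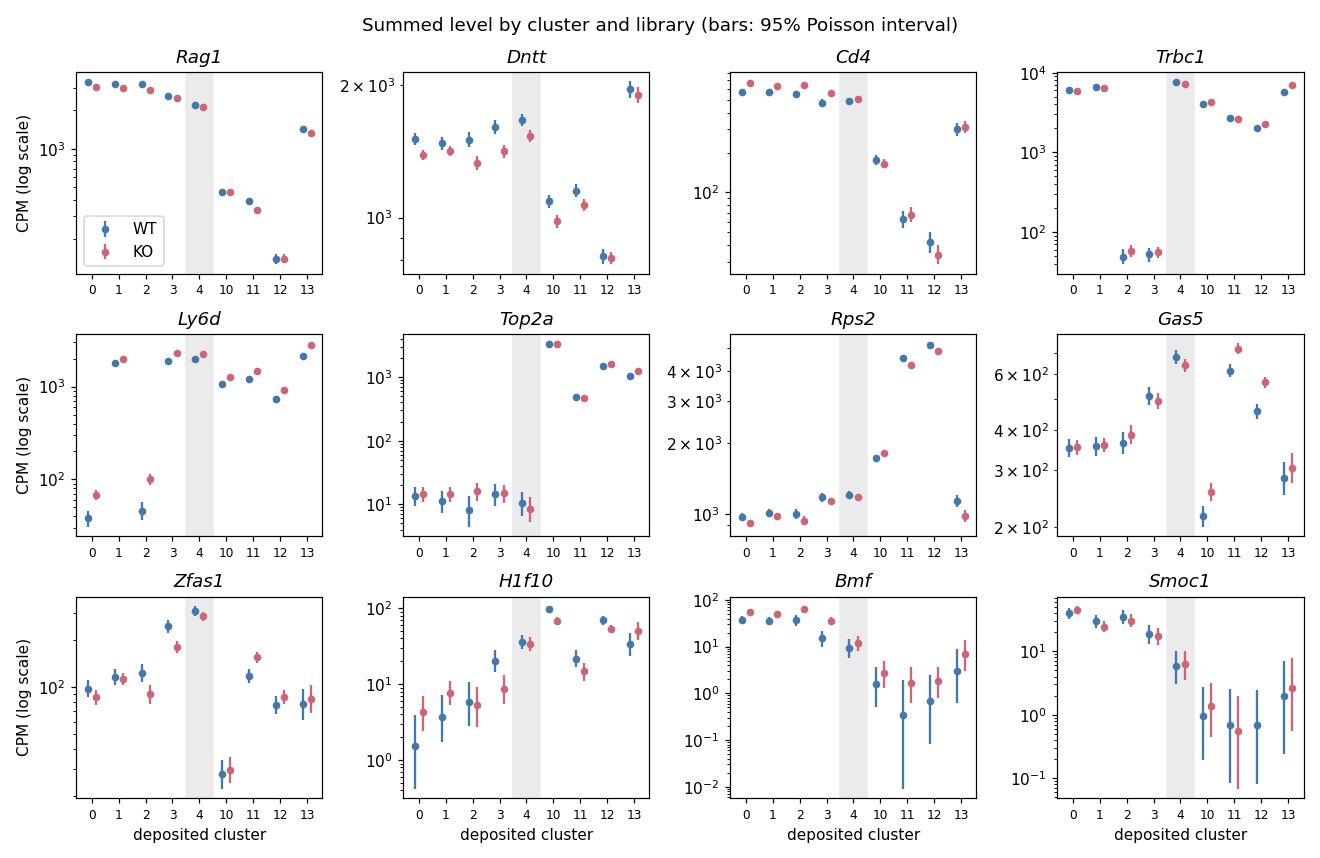
Summed level of 12 genes (y axis, CPM on a log scale) by deposited cluster (x axis) and library (colour), with 95% Poisson intervals; a library with 0 UMIs has no point. In cluster 4, shaded, Rag1 is below clusters 0 to 3, Gas5 and Zfas1 are above them, and Bmf and Smoc1 lie between clusters 0 to 3 and the dividing clusters.

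Of 47 S phase genes, 25 had 100 UMIs in each library, with 0 called higher and 6 lower. These were Mcm3, Pcna, Cdt1, Fen1, Rfc3 and Rpa2, all of which serve replication or its licensing. Pcna, the sliding clamp, was at 44.4 CPM in WT and 52.8 CPM in KO, against 65.0 and 74.9 CPM in clusters 0 to 3 and 724 and 771 CPM in clusters 10 to 13. The medians of the list over clusters 0 to 3 were -0.40 and -0.38, beside -0.12 and -0.11 over all genes. Set against cluster 3 alone, 0 of 10 genes were called. Among 57 genes of G2 and mitosis, 17 could be called, with Cenpf higher and 5 lower (Kif23, Smc2, Ncapd2, Tubb4b and Tuba1b).

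Among histone genes, H1f0 and H1f10, both linker histones, were called higher and 0 were called lower, of 18 with enough UMIs. Of 48 actin genes, 47 could be called. Actg1, cytoplasmic actin, was at 1025 CPM in WT and 852 CPM in KO, against 573 and 504 CPM, and Coro1a, which binds actin filaments in leukocytes, at 1468 and 1377 CPM against 954 and 932 CPM. Tmsb10, which holds actin monomers, was lower, at 347 and 541 CPM against 582 and 801 CPM. The 28 DP stage genes with enough UMIs had 0 called in either direction. Their medians were -0.16 in WT and -0.10 in KO, beside -0.12 and -0.11 over all genes. Rag1 had a log2 ratio of -0.50 in WT and -0.44 in KO.

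The gene with the largest ratio of cluster 4 over cluster 3 was Trbc1. It is 1 of the pair of constant genes of the TCR beta chain, on chromosome 6 at 41538218 to 41539881, and Trbc2 lies at 41546730 to 41548352. Each of the 1215 cells of cluster 4 had a UMI of Trbc1. In clusters 2 and 3 a UMI of it was found in 11.8% to 17.1% of the cells of a library. Its level in cluster 4 was 7759.6 CPM in WT and 7292 CPM in KO, and in cluster 3 it was 52.5 and 56.0 CPM. Trbc2 was at 8332 and 8033 CPM in cluster 4 and at 10905 and 9938 CPM in cluster 3. The sequences of the pair are nearly identical, so reads may have been assigned to the wrong copy.

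Ly6d, a surface protein of early lymphocytes that was picked with its values in view, split the resting clusters along another line. It was at 1986 CPM in WT and 2254 CPM in KO in cluster 4, at 1887 and 2294 CPM in cluster 3 and at 1792 and 1959 CPM in cluster 1. In clusters 0 and 2 it was at 38.0 to 100.3 CPM. Thus cluster 4 was high in both genes, as was cluster 1, while cluster 3 was high in Ly6d alone.

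With cluster 3 as the sole comparison, 8 of 5232 genes (0.153%) were called higher in cluster 4 and 20 (0.382%) lower. Beside Trbc1, those higher were H1f10, Nrp1, 1110038B12Rik, Galt, Gm12254, Gm15558 and Gm41600. H1f10 had a log2 ratio of 0.82 in WT and 1.94 in KO, and Nrp1 of 0.75 and 1.11. Of the 79 ribosomal protein genes 0 were called, with medians of 0.13 and 0.21, and 77 were above 0 in each library. Cluster 1 was, like cluster 4, high in the summed levels of Trbc1 and Ly6d. Against it, 115 of 5731 genes (2.01%) were called higher and 194 (3.39%) lower, and 23 ribosomal protein genes were among the higher. Both comparisons were chosen after the data were seen.

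TCR alpha genes were examined after other values were known. Counts taken at the 3′ end do not show whether a counted variable gene had been joined. Where these cells stood in alpha rearrangement was therefore not tested. The 76 variable genes of the alpha chain (Trav) that could be placed lie on chromosome 14, from position 52427928 to 53977153, upstream of Trac at 54220521. The 20 nearest to Trac run from Trav3-3 to Trav23. In cluster 4 these 20 held 195 of 327 Trav UMIs in WT, which is 59.6% (54.1 to 65.0), and 188 of 302 in KO, which is 62.3% (56.5 to 67.7). In cluster 3 the shares were 47.4% (40.6 to 54.3) and 45.9% (40.1 to 51.8). In cluster 1 they were 34.6% and 32.9%, in cluster 2 28.3% and 29.6%, and in cluster 0 25.5% (20.1 to 31.5) and 26.3% (22.1 to 30.9).

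Cluster 4 thus had the highest share of proximal Trav genes of the 5 resting clusters in both libraries, with intervals that did not overlap those of any other resting cluster except cluster 3 in WT. The intervals take each UMI as a separate draw and leave out the spread between cells, so they may be too narrow. The dividing clusters together were at 52.1% (46.2 to 57.9) and 59.4% (53.8 to 64.8). Proximal genes summed to 87.4 CPM in WT and 72.9 CPM in KO, against 34.4 and 34.9 CPM in clusters 0 to 3, and the other 56 genes to 59.1 and 44.2 CPM, against 66.7 and 70.1 CPM. For the latter the intervals of cluster 4 and clusters 0 to 3 overlapped in WT and not in KO. Trav17 gave 29 and 11 UMIs in cluster 4, and 19 and 25 in the larger clusters 0 to 3. Trac itself was at 500.4 and 461 CPM against 573 and 609 CPM. Trav genes are a family of similar copies, so single counts are uncertain. Of the nearest 20, Trav6-7-dv9, Trav21-dv12, Trav13-4-dv7 and Trav4-4-dv10 also carry a delta variable (dv) label. In cluster 4 they gave 22, 22, 15 and 14 UMIs in WT and 26, 20, 16 and 18 in KO. In clusters 0 to 3 they gave 38, 16, 10 and 45 in WT and 94, 14, 13 and 54 in KO. Whether these UMIs came from delta transcripts was not tested.

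**Figure D4:**
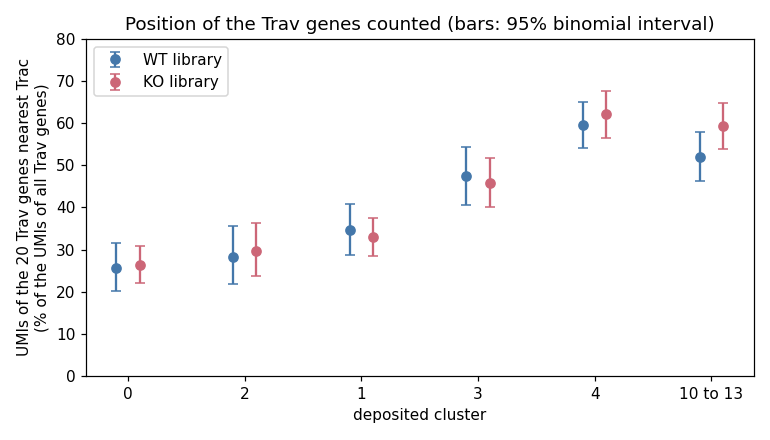
Share of the UMIs of all 76 placed Trav genes that came from the 20 nearest to Trac (y axis, percent) by deposited cluster (x axis, clusters 10 to 13 pooled) and library (colour), with 95% Clopper-Pearson intervals. The share is 59.6% and 62.3% in cluster 4 and at most 47.4% in clusters 0 to 3.

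Set beside the dividing clusters 10 to 13, cluster 4 was a resting population. All 47 S phase genes and all 57 genes of G2 and mitosis were called lower in cluster 4, where 1767 of 8022 genes (22.0%) were called lower and 2430 (30.3%) higher. The medians of these lists were -4.26 and -5.72 in WT and -4.28 and -5.82 in KO. With the genes at 0 UMIs in cluster 4 set to a floor of 3 counts per library, the medians for G2 and mitosis were -5.67 and -5.82. Aurkb, a mitotic kinase, had 0 UMIs in cluster 4 and 153 CPM in WT and 156 CPM in KO in clusters 10 to 13, so it was at least 114-fold lower in WT and 134-fold in KO. Kif4, Bub1 and Exo1 also had 0 UMIs in both libraries of cluster 4. Top2a, which untangles chromosomes, was at 10.3 and 8.54 CPM against 1748 and 1743 CPM.

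DP stage genes were higher in cluster 4 than in the dividing clusters, with 23 of 28 called higher and 2 lower, and medians of 1.25 and 1.33. Rag1 had log2 ratios of 2.31 and 2.44, and Cd4 of 2.06 and 2.27. Among the 10 genes with the largest ratios were Insl5, a relaxin-family peptide, at 123 CPM in WT and 61.3 CPM in KO against 5.30 and 3.77 CPM, and Spo11, known from meiotic recombination, at 140.2 and 128 CPM against 14 and 12.01 CPM. The others were BB031773, Gramd3, BC065403, Gm15340, Xrra1, Tcp11l2, Gm38405 and Gm26740, of which BB031773, BC065403, Gm38405 and Gm26740 are annotated as antisense and Gm15340 as a long intergenic RNA.

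Ribosome biogenesis genes were far lower than in the dividing clusters, with 34 of 44 called lower and 1 higher, and medians of -1.28 and -1.29. Ribosomal protein genes differed less, with 14 of 79 called lower and 1 higher, and medians of -0.24 and -0.29. Among snoRNA hosts 2 of 13 were called higher and 3 lower. Zfas1 was at 73.1 and 89.5 CPM in clusters 10 to 13, against 309.6 and 284 CPM in cluster 4. The direction of the split depended on the scaling here. Of the genes called, 57.9% were higher in cluster 4 with total counts and 32.1% with TMM factors, which moved the median of all genes from 0.24 to -0.13 in WT. Against clusters 0 to 3, 26.9% of calls were higher with total counts and 50.2% with TMM factors.

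KO was then set beside WT within cluster 4. Of 5723 genes with at least 100 UMIs over both libraries, 173 (3.02%) were higher in KO and 79 (1.38%) lower by a log2 ratio of 0.5 or more. With every cell thinned to 1000 UMIs, 67 and 38 genes passed, of which 10 and 6 were among the 173 and 79, and 2078 genes had enough UMIs. The 79 ribosomal protein genes had a median of -0.08, beside 0.04 for all genes, with 1 higher (Rpl38) and 0 lower. Of 28 DP stage genes 0 passed the ratio, and of 47 actin genes 1 did (Tmsb10, higher, 347 CPM in WT and 541 CPM in KO). The difference in share, 9.71% against 8.21% of the library, had no replicate check.

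The lower genes were led by Ctsl, a lysosomal protease, at 2422 CPM in WT and 341 CPM in KO, a log2 ratio of -2.83 (-2.93 to -2.72). Its ratio was -2.84 in clusters 0 to 3 and -3.50 in clusters 10 to 13. Gnb4, a G protein subunit, was at 50.2 and 22.1 CPM, and Arl3, a small GTPase of cilia, at 53.3 and 24.4 CPM. Their ratios of -1.18 and -1.12 had values of -0.93 and -1.14 beside them in clusters 0 to 3. Insl5 was at 123 and 61.3 CPM, a ratio of -1.0 (-1.29 to -0.71), and -0.79 in clusters 0 to 3. The others were Gm50335, Gm27230, Btrc, Slc15a2, Rbbp5 and Tbc1d4, of which Rbbp5 and Tbc1d4 had ratios of 0.06 and 0.02 in clusters 0 to 3. H1f0 (94.1 and 57.4 CPM), H1f1 (54.7 and 33.4 CPM) and H4c9 (42.6 and 28.7 CPM) were the 3 of 16 histone genes lower by this ratio, with 0 higher.

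The higher genes were led by Gm45315, a processed pseudogene on chromosome 7 at 12797529 to 12797861, at 5.38 CPM in WT and 146 CPM in KO. Reads of a pseudogene may come from a parent gene. Ifi27l2a, Epsti1, Samd9l and Trim30a are induced by interferon. Ifi27l2a was at 14.3 and 79.2 CPM, and 1 KO cell held 28 of its 204 UMIs. Epsti1 was at 96.3 and 341 CPM, a log2 ratio of 1.82 (1.61 to 2.05), and 2.63 in clusters 0 to 3. Samd9l was at 27.8 and 73.7 CPM, and its ratio of 1.40 stood beside 0.60 in clusters 0 to 3. Trim30a was at 15.2 and 36.5 CPM. Klf2, a transcription factor of mature T cells, was at 18.4 and 47.0 CPM, a ratio of 1.34 (0.83 to 1.90), and 2.11 in clusters 0 to 3. mt-Nd3, Dnajc15, AW112010 and Plcb2 completed the 10. Differences of these ratios between clusters were not tested. Markers of red blood cells moved with the libraries, at 12.99 CPM in WT and 0.388 CPM in KO, and their part in these ratios was not tested.

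**Figure D5:**
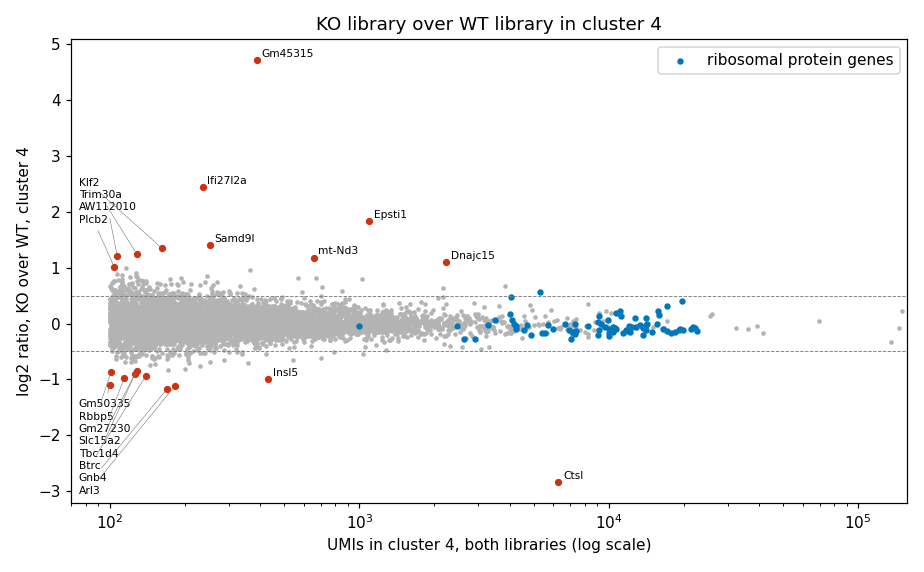
Log2 ratio of KO over WT in cluster 4 (y axis) against the UMIs of the gene over both libraries (x axis, log scale), 1 point per gene tested, with dashed lines at 0.5 and -0.5. The 10 largest and 10 smallest ratios are named, from Gm45315 at 4.71 to Ctsl at -2.83, and ribosomal protein genes lie near 0 except Rpl38.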

How the data were processed

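Thymocytes from whole thymus were profiled with a 10x Genomics 3′ single-cell kit, 1 library of 5 pooled mice per group. The authors deposited a table of UMI counts per gene and cell, for 20282 genes, made per the submitters' processing notes with Cell Ranger 3.0.2, STAR and Seurat on mm10, and a cell table whose other columns (cluster numbers, library names) were also deposited. Per the study's methods, cells were kept by the authors at 200 to 6000 genes and under 50000 reads. Cell names carry Cdc45 in place of Cdc42, and the library was read from WT or KO in the name.

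Cells were grouped by the deposited clusters of resolution 1.5 (19 clusters). Raw counts were summed per cluster and library and scaled to CPM. Log2 ratios were taken after adding 0.5 UMI. Intervals are exact (Poisson, Clopper-Pearson, or conditional binomial for ratios). With 1 library per group no test was possible, and no p-value is given. A call means a log2 ratio of 0.5 or more with at least 100 UMIs over both libraries (KO over WT), or the same in each library and direction (between clusters). List medians used genes with at least 20 UMIs. Named genes were the 10 largest and 10 smallest ratios of each comparison (between clusters, ranked by the library nearer to 0), genes of the lists and the markers. Any other gene was picked with its values in view, and the text says so. Some genes that the rule or lists name are not reported here. The members and lists were chosen with earlier results of these data known. Library totals were 29706197 UMIs in WT and 37920214 in KO, with medians of 3192 and 3401 per cell.

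Doublets were scored with Scrublet, whose automatic threshold marked 2 WT cells and 0 KO cells and so did not work. No cell was removed, and leaving out the top 6% of scores was tried instead. Gene positions are from GENCODE vM21 on GRCm38, and promoter sequences from RefSeq on GRCm38.p6. Scripts used Python 3.11.15 with numpy 2.4.6, scipy 1.17.1 and scanpy 1.11.5, and R 4.3.3 with edgeR 4.0.16 (TMM factors) and DESeq2 1.42.0 (size factors), and were tested on simulated data. Alternatives were other scalings, thinning to 1000 UMIs, other minimums, filters on cells, finer clusterings and, chosen after seeing the data, other comparison clusters and other numbers of Trav genes.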

Additional observations from a re-analysis of the deposited data

How the results depend on the processing

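No paired analysis was possible because each group was 1 library and no test was made. Of the values that answer a comparison, 28 moved under an alternative and 99 stayed near the reported value. Of those, 16 had the identical value, such as those without the top 5% of cells by UMIs, which held 0 cells of cluster 4, and say nothing of stability. Minimums on UMIs likewise could not change the ribosomal protein medians. Genes higher and lower in KO numbered 173 and 79. They were 67 and 38 with cells thinned to 1000 UMIs, 435 and 221 with a minimum of 50 UMIs, and 45 and 28 with a minimum of 200. Fewer or more genes were tested in these settings by construction. Over clusters 0 to 3 there were 130 higher and 354 lower genes. They became 210 and 229 with totals that leave out ribosomal protein and mitochondrial genes, 225 and 223 under TMM, and 221 and 225 under DESeq2 scaling. The lower genes were 204 after thinning and 231 with the minimum of 200. With cluster 3 alone, 8 and 20 genes were called and the ribosomal protein medians were 0.13 in WT and 0.21 in KO. With cluster 1 alone, 194 genes were lower. Over clusters 10 to 13, 2430 and 1767 genes became 1262 and 2671 under TMM, 1280 and 2657 under DESeq2 scaling, and 433 and 490 after thinning, and 1455 were higher without the top 5% of cells by UMIs. The cause was not tested where genes tested did not change. The shares of cluster 4 were 16.3% and 13.4% with clusters 0 to 4 as the denominator. Of the calls in KO over WT, 68.7% were higher with total counts and 58.8% with DESeq2 size factors.

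Over all lists, 1018 medians stayed near the reported value (163 of them identical), 270 moved and 3 changed sign. The B cell median over clusters 10 to 13 was 0.37 in KO after thinning (-3.84 as reported) and 0.50 in WT with a minimum of 50 UMIs for lists (-1.37). The macrophage median in KO was 0.43 with a minimum of 5 (-0.50). Each rested on few genes. Of the values of named genes, 1196 stayed (312 of them identical) and 124 moved, with 0 changes of sign. With the 10 Trav genes nearest to Trac the share in cluster 4 was 26.0% and 25.8%, and in cluster 3 13.02% and 13.7%. With the nearest 30 it was 79.5% and 81.8%, and in cluster 3 72.6% and 69.2%. Depth limits low genes: a gene with 0 UMIs in cluster 4 could be at up to 1.34 CPM in WT and 1.16 CPM in KO.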

Other observations

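Among the 79 ribosomal protein genes, those with the largest ratios of KO over WT in cluster 4 were Rpl38 (0.56), Rps28 (0.47), Rps29 (0.39), Rps27 (0.31) and Rpl39 (0.22), while the list median was -0.08. In clusters 0 to 3 the same genes had ratios of 0.56, 0.38, 0.35, 0.27 and 0.21, and in clusters 10 to 13 of 0.63, 0.55, 0.41, 0.35 and 0.30. They were chosen after their values were seen.

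Of 7 late single-positive genes with enough UMIs, 3 were higher in KO and 0 lower, beside 3.02% higher over all genes. These were Klf2, Ms4a6b at a log2 ratio of 0.55, and Gimap5, a GTPase of lymphocyte survival, at 0.63. The 18 genes of the list summed to 850.3 CPM in WT and 946 CPM in KO in cluster 4, to 852 and 959 CPM in clusters 0 to 3, and to 287 and 354 CPM in clusters 10 to 13.

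Dnajc15 and Epsti1, both among the 10 genes highest in KO, lie next to each other on chromosome 14, Dnajc15 at 77820681 to 77875125 and Epsti1 at 77904239 to 78002657. Dnajc15, a chaperone of the inner mitochondrial membrane, was at 288 CPM in WT and 618 CPM in KO, with a log2 ratio of 1.10 in cluster 4, 1.92 in clusters 0 to 3 and 0.62 in clusters 10 to 13.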
